A study of Homo sapiens with 15 samples.

Results

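The genes described here encode the proteins of the cytosolic ribosome. Members were taken by symbol: names of the form RPL or RPS with a number, RPSA and the stalk genes RPLP0, RPLP1 and RPLP2, without Y-linked copies and pseudogenes. This gave 80 genes out of 17360 symbols listed in either experiment, of which 46 belong to the large subunit, 31 to the small subunit and 3 to the stalk. All 80 were listed in the experiment with vehicle and saracatinib, and 79 in the untreated experiment, where RPL10L was not among the symbols. A ribosome holds 1 copy of nearly every one of these proteins, so cells keep their mRNAs at high and closely matched levels. Most of these mRNAs start with a cytosine followed by a run of pyrimidines, the terminal oligopyrimidine or TOP motif, through which mTOR signalling and the RNA-binding protein LARP1 control their translation and stability. Because growth control acts largely on translation, the mRNA level of a ribosomal protein gene is not a measure of how much protein is made.

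RNA was sequenced from A375, a long-established melanoma line of human origin that carries a BRAF mutation. In the first experiment, cells with an empty vector received vehicle, and cells expressing VAV1, a guanine nucleotide exchange factor for RAC1 and related GTPases, received vehicle or saracatinib, a SRC family kinase inhibitor. In the second, untreated cells carried the empty vector or RAC1 P29S, an activated form of RAC1 found in melanoma. Each of the 5 groups had 3 libraries that the submitters call biological triplicates, all from this one line, with no dose, time or transduction given and no empty-vector cells with saracatinib. The p-values therefore measure the spread between these cultures. The experiments were normalized separately, so levels are compared within each and never between them.

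The transgenes checked the labels. VAV1 stood at 1.90, 2.49 and 2.28 on the log2 scale in the empty-vector libraries with vehicle, at 13.93, 13.86 and 13.94 in the VAV1 libraries with vehicle and at 14.10, 14.16 and 14.11 with saracatinib. RAC1 stood at 11.87, 11.90 and 11.88 in the untreated empty-vector libraries and at 14.95, 14.89 and 14.95 in those titled RAC1 P29S, whose genotype field gives the empty vector. Totals ran from 14443918 to 16262759 normalized counts per library. Melanocyte markers, of which 7 to 9 of 12 had a mean of at least 10, summed to 18600 to 18700 normalized counts in the empty-vector libraries with vehicle, 4730 to 4820 with VAV1, 6630 to 6720 with VAV1 and saracatinib, 21100 to 22100 in the untreated empty-vector libraries and 8900 to 8980 with RAC1 P29S. In the same order, the epithelial markers, 3 of 7 at that level, summed to 6020 to 6820, 13000 to 14000, 8040 to 8430, 3110 to 3550 and 6180 to 6900. The haematopoietic markers, 2 of 7 at that level, summed to 705 to 755, 1170 to 1220, 2450 to 2690, 406 to 482 and 938 to 1040. The sums cover all listed markers of a kind, also those below that level. Of the melanocyte markers, 5 fell and 1 rose among 8 tested with VAV1, and 5 fell and 1 rose among 7 with RAC1 P29S. With saracatinib 5 of 8 rose and 1 fell (limma). Of 3 epithelial markers tested, 2 rose and 1 fell with VAV1 and with RAC1 P29S (limma). Of the haematopoietic ones, CD68 rose by 1.21 and LYZ fell by 2.11 with VAV1. With RAC1 P29S CD68 rose by 1.45 and LYZ fell by 0.89, and both rose with saracatinib. Fibroblast markers, 3 or 4 of 7, summed to 80.5 to 249 and endothelial markers, 1 to 3 of 5, to 38.2 to 111 over all libraries. Among their defining genes, CD14 stayed at 0 to 7.73, CDH1 at 0.862 to 6.79, COL1A2 at 0 to 5.92, CDH5 at 0 to 9.53, PTPRC at 1.67 to 21.5 and PECAM1 at 3.4 to 55.4 normalized counts. In bulk RNA, fewer cells of a type and less RNA per cell cannot be told apart. Whether the changes in these markers have a part in the ribosomal protein values was not tested.

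The starts of the genes are shown first, since they hold what the members share apart from their function. In RefSeq's promoter table for GRCh38.p14, 63 of the 80 members had an entry. Leaving out RPL10L, 62 genes with 77 annotated starts could be compared with all 35116 starts of the table. A run of at least 8 C or T bases lying at the start, within 5 bases of it, was found at 70.1% of the members' starts and at 11.5% of all starts, and the median longest run was 11 bases against 4. The first base was C at 66.2% of the members' starts and 14.7% of all. The word TCTTT, searched on the transcribed strand within 20 bases of the start, was present at 29.9% of members' starts and 5.03% of all. For CCTTT the shares were 37.7% and 4.94%, and for CTCTT, which can overlap the first, 39% and 5.45%. CCGGAAG, the core bound by ETS factors such as GABPA, was found on either strand of the 300-base window at 33.8% of members' starts and 10.3% of all, and TATAAA at 6.49% and 11.5%. A match is a description of the letters, not a binding site. The 10 starts below belong to genes with 1 annotated start, 9 of them among the members with the largest changes in the comparisons described later and RPLP0, which passed the test in none. Each shows 30 bases before the annotated start and 15 from it, with the pyrimidine run at the start in capitals.
RPL41 (chr12:56116603-56116647, plus strand): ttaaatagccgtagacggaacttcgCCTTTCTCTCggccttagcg
RPL39 (chrX:119791616-119791660, minus strand): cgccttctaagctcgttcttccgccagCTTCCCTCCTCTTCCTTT
RPS25 (chr11:119018329-119018373, minus strand): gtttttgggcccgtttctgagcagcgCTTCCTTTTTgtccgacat
RPS27 (chr1:153990732-153990776, plus strand): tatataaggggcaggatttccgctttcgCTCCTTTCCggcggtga
RPS29 (chr14:49598696-49598740, minus strand): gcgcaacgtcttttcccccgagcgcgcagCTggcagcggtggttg
RPL28 (chr19:55385902-55385946, plus strand): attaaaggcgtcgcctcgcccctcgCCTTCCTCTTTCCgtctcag
RPS28 (chr19:8321466-8321510, plus strand): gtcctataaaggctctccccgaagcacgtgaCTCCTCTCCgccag
RPL38 (chr17:74203648-74203692, plus strand): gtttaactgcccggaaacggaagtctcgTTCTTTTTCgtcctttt
RPL12 (chr9:127451392-127451436, minus strand): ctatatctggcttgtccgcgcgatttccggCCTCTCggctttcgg
RPLP0 (chr12:120201097-120201141, minus strand): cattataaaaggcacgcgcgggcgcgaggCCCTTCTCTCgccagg
The first 4 genes rose with saracatinib and fell with RAC1 P29S, and their runs were 10, 22, 10 and 9 bases long, the run of RPL39 going on past the bases shown. RPL28, RPS28 and RPL38, which rose with RAC1 P29S, carried runs of 13, 9 and 9 bases, and RPLP0 a run of 10. RPL12 had 6 and RPS29 only 2 at its annotated start. Both short and long runs thus occur among these members, which were chosen for their changes.

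Within the first experiment the members held a larger part of all counts with saracatinib than with vehicle. Their summed share of all normalized counts was 8.69%, 8.55% and 8.38% in the empty-vector libraries with vehicle, 8.93%, 8.19% and 8.71% in the VAV1 libraries with vehicle, and 9.42%, 9.83% and 9.46% in the VAV1 libraries with saracatinib. All 3 saracatinib libraries lay above all 6 libraries with vehicle, and the 2 vehicle groups overlapped. The means were 8.54% ± 0.16, 8.61% ± 0.38 and 9.57% ± 0.23 (SD, n = 3), so the share was 0.96 percentage points higher with saracatinib than with vehicle in VAV1 cells and 0.07 points higher with VAV1 than with the empty vector. Without VAV1 vehicle replicate 1 or empty-vector replicate 3 the latter difference was −0.09 or −0.01, and without VAV1 vehicle replicate 2 it was 0.28. In the untreated experiment the share was 9.06%, 8.94% and 8.72% with the empty vector and 9.14%, 8.84% and 8.79% with RAC1 P29S. Leaving out each library in turn moved the difference from −0.09 to 0.09 points. These groups overlapped, with means of 8.91% ± 0.17 and 8.92% ± 0.19 (SD, n = 3). A share does not depend on the scaling between libraries, but it moves with whatever else fills the library. Mitochondrially encoded mRNAs took 1.66% ± 0.21, 1.21% ± 0.19 and 1.70% ± 0.28 (SD, n = 3) in the 3 groups of the first experiment, and without them and the transgenes the saracatinib difference was 1.02 points.

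**Figure D1:**
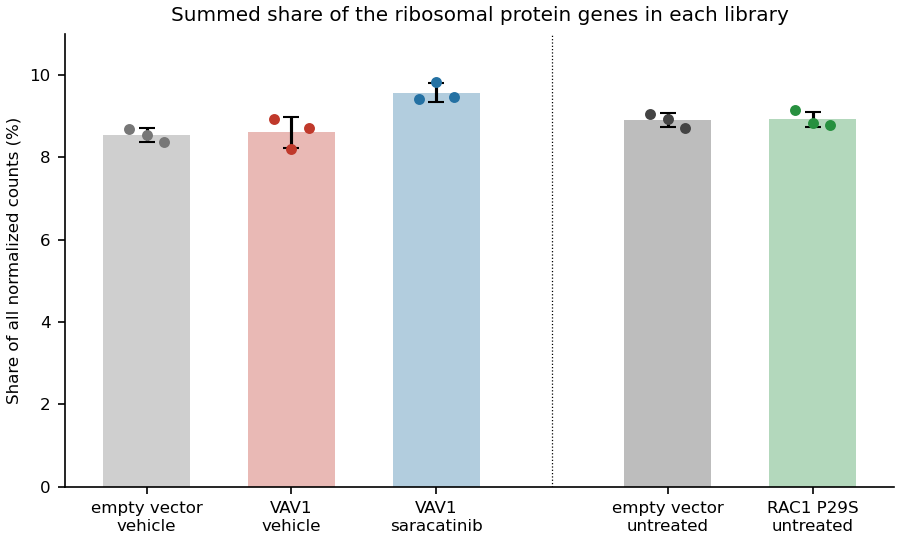
Summed share of the ribosomal protein genes among all normalized counts in each library (y axis, percent), by group. Points are libraries, bars and whiskers the mean and SD of 3 libraries, and the dotted line separates the experiments; the 3 saracatinib libraries lie at 9.42% to 9.83%, above the 6 vehicle libraries at 8.19% to 8.93%.

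Large and small subunit mRNAs kept a similar proportion, with small shifts. The large subunit, stalk included, summed to 1.5 ± 0.0168 times the small subunit with the empty vector and vehicle, 1.46 ± 0.0162 with VAV1, 1.46 ± 0.00998 with VAV1 and saracatinib, 1.42 ± 0.00501 in the untreated empty-vector libraries and 1.45 ± 0.00336 with RAC1 P29S (SD, n = 3). The RAC1 P29S libraries, at 1.44 to 1.45, lay above the untreated empty-vector libraries at 1.42 to 1.43. Those with VAV1 and saracatinib, at 1.45 to 1.47, lay below those with the empty vector and vehicle at 1.48 to 1.51. The small subunit took 3.42% ± 0.08 of all counts with the empty vector, 3.50% ± 0.17 with VAV1 and 3.89% ± 0.09 with saracatinib, and the large subunit without the stalk 4.58% ± 0.07, 4.6% ± 0.18 and 5.12% ± 0.11 (SD, n = 3). The stalk genes stayed at 0.53% ± 0.03, 0.52% ± 0.02 and 0.55% ± 0.03 (SD, n = 3), so their share did not move with the rest beyond the spread of the libraries.

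Per kilobase of coding sequence, the level ran over a wide range at both ends and a narrow one in the middle. RPL41, whose product is the shortest ribosomal protein, with 78 coding bases, stood highest at 391000 normalized counts per kilobase in the first experiment and 482000 in the untreated one. RPL39, another very short protein of the exit tunnel, followed with 88700 and 98800, and RPS27 with 69700 and 71300. Next came RPL13A in the first experiment at 68200 and RPLP1 in the second at 70800. Coding length understates the length that is sequenced for such short genes, so these top ranks are upper values. Leaving out the tissue-restricted paralogs described next, RPL9 stood lowest with 2810 and 3730 per kilobase, followed by RPS9 with 4930 and 5970, and RPS26 with 9660 and 10800. For RPL9 the tables list most of the signal elsewhere: its pseudogene symbols together held 1270% to 1500% of its own count in the first experiment and 991% to 1130% in the untreated one. The same figure was 46.8% to 57.3% for RPL23A, 26.9% to 35.4% for RPS28 and 9.59% to 11.4% for RPS2, and reads of near-identical copies cannot be assigned with certainty. The other 38 of the 42 members with pseudogene symbols were at or under 10%.

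The tissue-restricted paralogs were low throughout. RPL39L, which replaces RPL39 in the ribosomes of male germ cells and is found in several cancers, had a mean of 188 normalized counts in the first experiment and 198 in the second, against 13800 and 15400 for RPL39. RPL3L, the heart and skeletal muscle form of RPL3, had 18.6 and 13.6 against 32100 and 28600 for RPL3. RPL10L, a retrogene copy of RPL10 used in the testis, had 3.76 in the first experiment, below the level needed for a test. The 79 other members were tested in every comparison.

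The test was a linear model (limma) over all genes with at least 10 normalized counts in at least 3 libraries, and a gene was called when its Benjamini-Hochberg adjusted p was under 0.05. VAV1 changed few members, and those by little. Of 79 tested, 19 were higher and 3 lower with VAV1 than with the empty vector, both with vehicle. Over all 14410 genes tested, 23.6% were called higher and 20.1% lower, so the share of members called higher, 24.1%, was close to that of all genes. In either direction 22 members were called against 43.7% of all genes, 29 had an unadjusted p under 0.05 against 50.8%, and 55 had a fold change above 0 against 52.3%. The median log2 fold change was 0.056 for the members, from 0.024 without VAV1 vehicle replicate 1 to 0.089 without replicate 2, and 0.021 for all genes. The members' changes spread with an SD of 0.12 against 0.78 for all genes. The groups did not overlap for 14 members that were higher and 4 that were lower with VAV1, against 28.2% and 24.5% of all genes, or 52.7% in either direction. The split of the calls depended on the scaling, with 15 higher and 7 lower after total-count scaling, 15 and 5 with the total taken without the members, and 12 and 10 after quantile normalization. It also moved with library VAV1 vehicle replicate 2, which was the lowest of its group for the members (median deviation −0.098 on the log2 scale, against 0.047 and −0.005): without it, 30 were higher and 2 lower. Leaving out replicate 3 of either group left 11 higher and 3 lower.

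**Figure D2:**
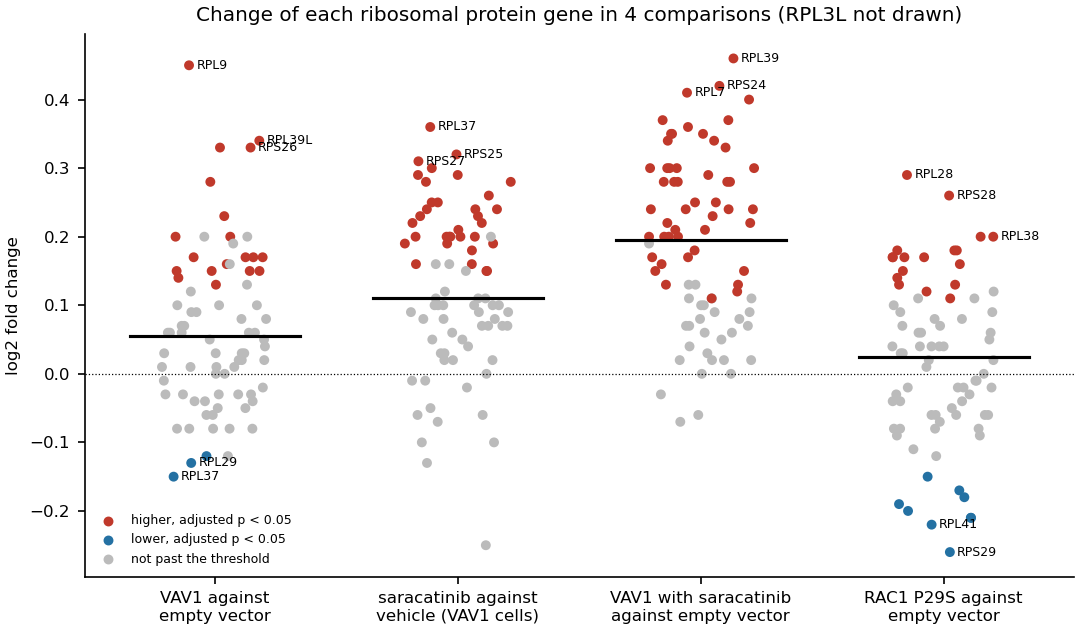
Log2 fold change (y axis) of each ribosomal protein gene in 4 comparisons (x axis), 1 point per gene, with black lines at the members' medians. Red points rose and blue points fell at an adjusted p under 0.05 (limma); RPL3L, tested but at under 30 counts, is not drawn. Calls lean upward in the comparisons with saracatinib, 33 and 49 higher and 0 lower, and go both ways with RAC1 P29S, 18 higher and 9 lower.

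Among large subunit proteins, RPL9 stood at 10.46, 10.43 and 10.27 with the empty vector and at 10.96, 10.80 and 10.75 with VAV1, and the groups did not overlap. The rise was 0.45 ± 0.07 (SE; adjusted p = 0.000153, limma), but with the counts of its pseudogene symbols added it was 0.22 with an adjusted p of 0.0571. RPL17, which lines the peptide exit tunnel, went from 13.35, 13.48 and 13.33 to 13.83, 13.61 and 13.70, a rise of 0.33 ± 0.06 (adjusted p = 0.000355, limma). RPL5, which with RPL11 carries the smallest ribosomal RNA into the large subunit and can bind MDM2 when ribosome assembly fails, went from 13.34, 13.47 and 13.35 to 13.70, 13.58 and 13.71. This was a rise of 0.28 ± 0.05 (adjusted p = 0.00028, limma), with no overlap. Its partner RPL11 rose by 0.15 ± 0.05 (adjusted p = 0.0252, limma) with overlapping libraries, a call lost in 10 of 24 alternatives and in 4 of the fits that left out a library, and RPL24 by 0.20 (adjusted p = 0.00104, limma). RPL39L rose by 0.34 ± 0.12 (adjusted p = 0.0345, limma), a call lost in 4 of the fits that left out a library. The 3 members that fell were RPL37 at −0.15, RPL29 at −0.13 and RPL13A at −0.12, and none of their libraries overlapped between the groups.

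Among small subunit proteins, 6 of 31 rose and none fell with VAV1 (limma, with none falling at an unadjusted p under 0.05 either), where 23.6% of all genes were called higher and 20.1% lower. RPS26, which contacts mRNA next to the exit site, went from 11.62, 11.47 and 11.51 to 11.91, 11.76 and 11.90 without overlap, a rise of 0.33 ± 0.05 (adjusted p = 0.000275, limma). RPS7 rose by 0.23 ± 0.06 and RPS24 by 0.20 ± 0.06 (adjusted p = 0.00842 and 0.0112, limma), both being genes mutated in Diamond-Blackfan anaemia. RPSA, the laminin receptor precursor, rose by 0.15 ± 0.04 (adjusted p = 0.0114, limma). RPS6, the substrate of S6 kinases and a common readout of mTOR activity, was 15.12, 15.09 and 15.05 with the empty vector and 15.08, 14.94 and 15.03 with VAV1, a difference of −0.06 ± 0.04 that did not pass the test (adjusted p = 0.204, limma).

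The question of what SRC family inhibition changed was put to VAV1 cells only. With saracatinib 33 of 79 members were higher and 0 lower than with vehicle, against 18.3% and 19.1% of the 14410 genes tested, or 37.3% in either direction. At an unadjusted p under 0.05 (limma), 41 were higher and 1, RPS26, was lower, against 45.7% of all genes in either direction. The median log2 fold change was 0.111 for the members and −0.007 for all genes, and 66 of 79 members were above 0, against 49.2% of all genes. Libraries did not overlap for 39 members that were higher and 3 that were lower, against 24.1% and 25.3% of all genes, or 49.4% in either direction. Of the large subunit, 19 of 45 rose, of the small subunit 14 of 31, and of the stalk 0 of 3. Without VAV1 vehicle replicate 2, the low library of the reference group here too, 27 were higher and 2 lower and the median was 0.074. With the trend in coding length removed from each library 32 were higher and 4 lower, and without the mean-variance trend and robust estimation 22 and 0.

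RPL37, a zinc-binding protein at the surface of the large subunit, showed the highest rise. It stood at 13.71, 13.64 and 13.71 with vehicle and at 14.08, 14.08 and 13.98 with saracatinib, a rise of 0.36 ± 0.04 or 28.4% (adjusted p = 9.56e-06, limma), with no overlap. It had been 13.86, 13.84 and 13.82 with the empty vector, so its libraries were lowest with VAV1 and highest with VAV1 and saracatinib. RPL39 went from 13.76, 13.60 and 13.73 to 13.95, 14.01 and 14.03, a rise of 0.30 ± 0.06 (adjusted p = 0.000809, limma), and RPL41 from 14.81, 14.69 and 14.82 to 15.03, 15.09 and 15.08, a rise of 0.29 ± 0.04 (adjusted p = 0.000194, limma). RPL36A rose by 0.28. RPL11 rose by 0.20 ± 0.05 (adjusted p = 0.00542, limma), while its partner RPL5 stood at 0.03 ± 0.05 (adjusted p = 0.693, limma). RPL3 and RPL10 did not pass the test at 0.10 each (adjusted p = 0.0747 and 0.125, limma), nor did RPL39L at −0.25 ± 0.12 (adjusted p = 0.128, limma).

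In the small subunit, RPS25, a protein needed for initiation at several viral internal entry sites, stood at 13.54, 13.44 and 13.55 with vehicle and at 13.83, 13.85 and 13.83 with saracatinib. The rise of 0.32 ± 0.04 (adjusted p = 8.43e-05, limma) exceeded the spread of either group. RPS27, another zinc-binding protein, went from 14.17, 13.85 and 14.07 to 14.27, 14.44 and 14.31, a rise of 0.31 ± 0.07 (adjusted p = 0.00631, limma), with the vehicle libraries spread widely. RPS23, whose product helps to read the codon in the decoding centre, rose by 0.29 and RPS12 by 0.28. RPS6 rose by 0.19 ± 0.04 (adjusted p = 0.00161, limma), RPS27A, made as a fusion with ubiquitin, by 0.21 ± 0.05 (adjusted p = 0.00318, limma), and RPS4X by 0.23 ± 0.04 (adjusted p = 0.000894, limma). RPSA stood at −0.06 ± 0.04 (adjusted p = 0.278, limma).

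The stalk genes passed the test in no comparison. RPLP0, which anchors the stalk that recruits elongation factors, stood at 15.67, 15.60 and 15.57 with the empty vector and vehicle, 15.66, 15.47 and 15.60 with VAV1 and 15.61, 15.71 and 15.61 with saracatinib. It stood at 15.71, 15.72 and 15.62 in untreated empty-vector cells and 15.75, 15.66 and 15.73 with RAC1 P29S. The groups overlapped in each comparison, with fold changes of −0.03 with VAV1, 0.07 with saracatinib and 0.03 with RAC1 P29S. RPLP1 changed by 0.03, 0.10 and 0.07 and RPLP2 by 0.00, 0.06 and 0.07 in the same order. None of the 3 passed an unadjusted p of 0.05 (limma). Some alternatives did call them. After quantile normalization RPLP0 was called at −0.16 with VAV1, 0.18 with saracatinib and −0.15 with RAC1 P29S, and RPLP2 at 0.16 with saracatinib. With the GC trend removed RPLP2 was called at 0.12 with VAV1 and 0.17 with VAV1 and saracatinib, and in the latter comparison at −0.12 with the coding-length trend removed. In all, 15 members passed in none of the 4 group comparisons, among them RPL3, RPL8, RPL15, RPL19, RPS3 and RPS9.

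Set against the empty vector with vehicle, VAV1 cells with saracatinib showed more members higher than in either step. Here 49 of 79 were higher and 0 lower, against 22.4% and 21% of all genes tested, or 43.4% in either direction. At an unadjusted p under 0.05 (limma), 52 were higher and 0 lower, against 50.6% of all genes in either direction, and 73 had a fold change above 0 against 50.5%. The median was 0.195 against 0.004 for all genes, and the libraries of 55 members did not overlap, all of them higher, against 27.2% of all genes higher, 25.6% lower and 52.8% in either direction. With the coding-length trend removed 21 were higher and 6 lower, and the median was 0.036. This comparison shares its libraries with the 2 before it and is no independent evidence. RPL39 stood at 13.52, 13.65 and 13.43 with the empty vector, rose to 13.95 to 14.03, and so was 0.46 ± 0.06 or 37.9% higher (adjusted p = 2.14e-05, limma). RPS24 was 0.42 higher, RPL7 0.41, RPS27 0.40, RPL23 and RPS29 0.37, RPL26 0.36 and RPL11 0.35. RPL5 was 0.30 ± 0.05 higher (adjusted p = 0.000144, limma), against 0.28 without the inhibitor.

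**Figure D3:**
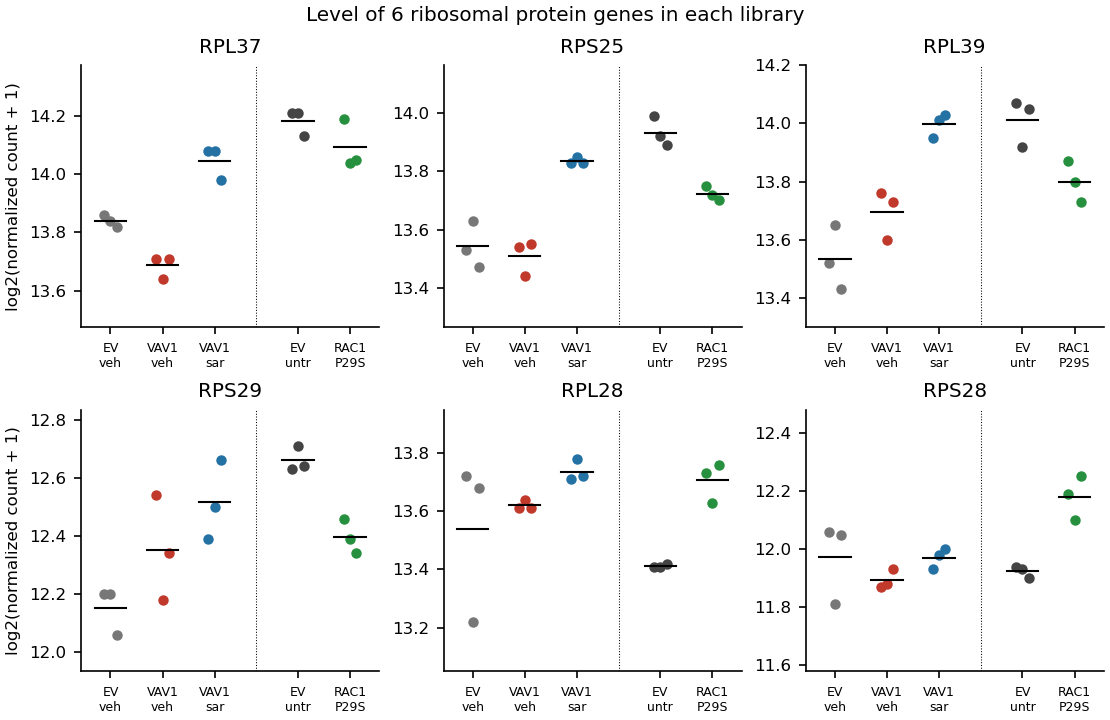
Level of 6 ribosomal protein genes in each library (y axis, log2 of the normalized count plus 1) by group, with lines at the group means; EV is the empty vector, veh vehicle, sar saracatinib and untr untreated, and the dotted line separates the experiments. RPL37, RPS25 and RPL39 are highest with saracatinib within the first experiment; RPS25, RPL39 and RPS29 are lower, and RPL28 and RPS28 higher, with RAC1 P29S.

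RAC1 P29S moved members in both directions. Of 79 tested, 18 (22.8%) were higher and 9 (11.4%) lower than with the empty vector, against 15.6% and 15.5% of 14036 genes. In either direction 34.2% of members were called against 31.1% of all genes, so the count is close to that of genes in general. An unadjusted p under 0.05 was found for 34 members against 41.2% of all genes, and a fold change above 0 for 43 against 49.4%. The median was 0.028 against −0.004 for all genes, and −0.006 without untreated empty-vector replicate 3. The groups did not overlap for 22 members that were higher and 10 that were lower, against 22.6% and 22.4% of all genes, or 45% in either direction. In the large subunit 13 of 45 rose and 3 fell, and in the small subunit 5 of 31 rose and 6 fell, a contrast that was not tested. The balance of the calls depended on single libraries and on the scaling: without RAC1 P29S replicate 1, 7 were higher and 10 lower, without replicate 3 it was 8 and 7, and without the empty-vector replicate 3 it was 11 and 12. After quantile normalization 14 were higher and 14 lower, and without trend and robust estimation 2 and 2.

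RPL28, a large subunit protein specific to eukaryotes, was the member that rose most. It stood at 13.41, 13.41 and 13.42 with the empty vector and at 13.73, 13.63 and 13.76 with RAC1 P29S, a rise of 0.29 ± 0.04 or 22.7% (adjusted p = 0.000472, limma), far outside the spread of either group. RPS28, at the mRNA exit of the small subunit, went from 11.94, 11.93 and 11.90 to 12.19, 12.10 and 12.25, a rise of 0.26 ± 0.05 (adjusted p = 0.00236, limma), and of 0.23 with its pseudogene symbol added. RPL38, tied to the translation of some homeobox mRNAs in the mouse, went from 12.85, 12.76 and 12.93 to 13.11, 12.99 and 13.05, and RPL12, a protein at the base of the stalk, from 13.96, 13.99 and 13.88 to 14.18, 14.10 and 14.16. Both rose by 0.20 (adjusted p = 0.0141 and 0.00357, limma), without overlap. RPL18, RPL9 and RPS26 rose by 0.18 each and RPL36 by 0.17. The rise of RPL9 was 0.02 (adjusted p = 0.812, limma) once its pseudogene symbols were added.

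The member that fell most was RPS29, a small zinc-binding protein near the head of the small subunit. It stood at 12.63, 12.71 and 12.64 with the empty vector and at 12.46, 12.39 and 12.34 with RAC1 P29S, and fell by 16.7% (−0.26 ± 0.05; adjusted p = 0.00159, limma). RPL41 went from 15.34, 15.32 and 15.25 to 15.16, 15.06 and 15.04 (−0.22 ± 0.04; adjusted p = 0.00248, limma), RPL39 from 14.07, 13.92 and 14.05 to 13.87, 13.80 and 13.73 (−0.21 ± 0.05; adjusted p = 0.0104, limma) and RPS25 from 13.99, 13.92 and 13.89 to 13.75, 13.72 and 13.70 (−0.21 ± 0.04; adjusted p = 0.00239, limma). In each of these 4 the groups did not overlap. RPS27 fell by 0.20, RPL30 by 0.19, RPS21 by 0.17 and RPS24 by 0.15. Of the members always described, RPL5 rose by 0.12 and RPSA by 0.11 (adjusted p = 0.0388 and 0.0379, limma). The call of RPL5 was lost whichever of the 6 libraries was left out, and RPSA was −0.06 after quantile normalization (adjusted p = 0.167, limma). RPS6, RPL11, RPS27A and RPS4X differed by 0.05 or less in either direction and did not pass.

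Of the 9 members that fell with RAC1 P29S, 8 had risen with saracatinib in the other experiment, among them RPL30, RPL39, RPL41, RPS21, RPS24, RPS25 and RPS27. Of the 18 that rose with RAC1 P29S, 2 had risen with saracatinib, RPL14 and RPL23A. With saracatinib 33 of all 79 members, or 41.8%, had risen, against 18.3% of all genes. Neither these counts nor the correlations below were taken over all genes. Whether they are particular to the members was therefore not tested. The contrasts share no library. Over the 79 members the effects of saracatinib and of RAC1 P29S had a Pearson's r of −0.61 and a Spearman's rho of −0.68, given as a description across genes, which are not independent replicates. The r was −0.68 among the 25 members with a coding length under 400 bases and −0.53 among the 54 others. It was −0.54 after removal of each library's trend with coding length, −0.64 after removal of the trend with GC content, and −0.47 after quantile normalization, the value nearest to 0 among the settings tried. Between VAV1 and RAC1 P29S, the activator and the activated GTPase, the r over the same members was 0.14 and the rho 0.10. This r was 0.30 with the GC trend removed, 0.21 with the coding-length trend removed and 0.22 after quantile normalization. Of the members called in both, 9 rose in both (RPL5, RPL9, RPL12, RPL14, RPL24, RPL35A, RPS19, RPS26 and RPSA). The share of all genes that rose in both was not counted. RPL9 passed in neither with its pseudogene symbols added (adjusted p = 0.0571 and 0.812, limma). The RAC1 P29S call of RPL5 was lost whichever library was left out. That of RPSA was lost in 7 and reversed in 1 of 21 alternatives. RPL39 and RPS24 rose with VAV1 and fell with RAC1 P29S, the VAV1 call of RPL39 being lost in 12 of 24 alternatives.

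**Figure D4:**
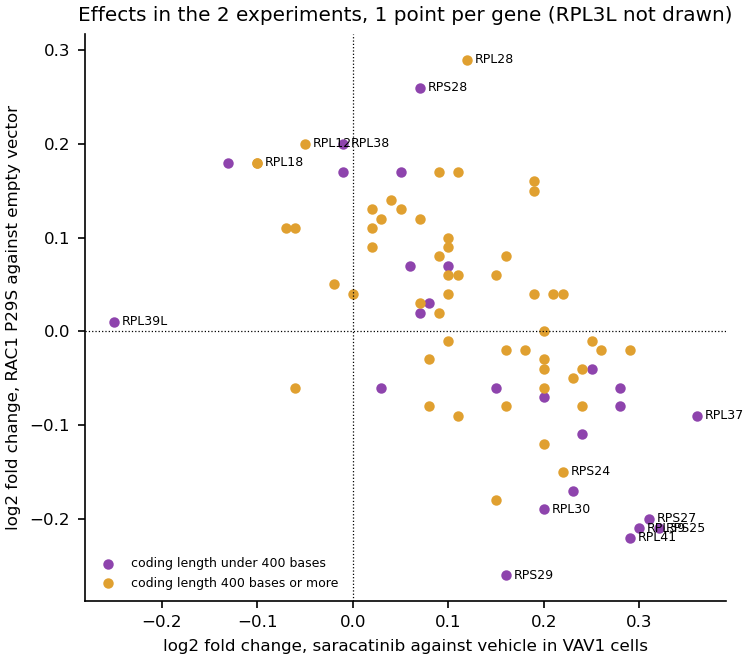
Log2 fold change with saracatinib in VAV1 cells (x axis) against log2 fold change with RAC1 P29S in untreated cells (y axis), 1 point per ribosomal protein gene, coloured by coding length. Over all 79 members, RPL3L included in the value but not drawn, r was −0.61; RPL37, RPS25, RPS27, RPL39 and RPL41 lie at the lower right, and RPL28, RPS28, RPL38, RPL12 and RPL18 at the top.

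The VAV1 and RAC1 P29S effects themselves differed for 12 members, with 9 higher and 3 lower for VAV1, against 8.14% and 7.7% of the 13810 genes tested in both experiments, or 15.8% in either direction, so the count is close to that of genes in general. A positive difference was found for 42 members against 50.9% of all genes, and an unadjusted p under 0.05 for 26 against 29.3%. The largest difference was that of RPS29 at 0.47 ± 0.11 (adjusted p = 0.00901, limma), from 0.20 with VAV1 and −0.26 with RAC1 P29S. RPL39 differed by 0.37 ± 0.08 and RPS24 by 0.35 ± 0.08 (adjusted p = 0.00478 and 0.00409, limma). In the other direction RPS28 differed by −0.34 ± 0.08 (adjusted p = 0.0093, limma), from −0.08 and 0.26. With upper-quartile scaling 4 were higher and 4 lower, with total-count scaling 8 and 4, and with the total taken without the members 7 and 4. Without VAV1 vehicle replicate 2 they were 21 and 2. Left out in turn, replicate 3 of the empty vector with vehicle and replicate 3 of RAC1 P29S each gave 4 and 2, and untreated empty-vector replicate 1 gave 5 and 2.

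The members' changes went partly with the coding length and base composition of the mRNAs. The members' coding length ran from 78 to 1284 bases with a median of 465. Across 77 members, without the 2 low paralogs, the r between log2 coding length and the log2 fold change was −0.01 with VAV1, −0.32 with saracatinib, −0.29 with both and 0.35 with RAC1 P29S, and the r with GC content was −0.27, −0.40, −0.60 and 0.28. Over all tested genes with a coding length, the r with length was weaker with saracatinib, with both and with RAC1 P29S. It was −0.07, −0.05, −0.12 and 0.01 in the same order, and that with GC content −0.14, 0.0, −0.15 and −0.02. Other short genes moved too in the first experiment. The median over 1548 genes that are no members and have under 600 coding bases was 0.118 with VAV1, above the members' own 0.056. It was 0.056 with saracatinib and 0.163 with both, and −0.011 over 1502 such genes with RAC1 P29S. After a smooth trend with coding length was removed from each library, a setting chosen after the data were seen, VAV1 gave 7 members higher and 20 lower, VAV1 with saracatinib 21 and 6, and the difference between VAV1 and RAC1 P29S 4 and 19. Saracatinib gave 32 and 4 and RAC1 P29S 22 and 11. The balance of the VAV1 calls turned with this setting, as did that of the difference. Removing the trend with GC content gave 25 and 3, 41 and 0, 60 and 0, and 22 and 11 in the order VAV1, saracatinib, both, and RAC1 P29S. Whether length or GC content has a part in the measured changes was not tested.

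Members differed in how closely they followed the rest. In the 9 libraries of the first experiment, the correlation of a member with the mean of the others had a median r of 0.81, and 66 of 79 were above 0.5. RPL30 and RPS27 followed most closely with 0.98, then RPL10 with 0.97 and RPL34 with 0.96. RPL3L, RPL18, RPL7A, RPS28 and RPS15 followed least, with −0.23, −0.10, 0.02, 0.09 and 0.13. In the 6 untreated libraries the median r was 0.49. RPS20, RPL29, RPL15, RPLP0 and RPL3 were closest with 0.96 to 0.87, and RPL39, RPS29, RPL30, RPLP2 and RPL7 were farthest with −0.23 to −0.16. RPL30 was thus among the closest in one experiment and the farthest in the other. These values describe the libraries and share their depth and scaling. Among 77 members the median within-group SD of a gene was 0.04 to 0.08 on the log2 scale in the 5 groups, and the highest was that of RPL28 in the empty-vector libraries with vehicle, at 0.28, where replicate 2 stood at 13.22 and the others at 13.72 and 13.68.

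Several near copies of ribosomal protein genes, which lie outside the naming rule, changed as well. RPS27L, a close copy of RPS27 and a target of p53, stood at 10.13, 10.41 and 10.20 with the empty vector, 11.39, 11.11 and 11.23 with VAV1 and 11.31, 11.36 and 11.35 with saracatinib. It rose by 0.99 ± 0.08 with VAV1 (adjusted p = 3.18e-07, limma), where RPS27 stood at 0.09 ± 0.07 (adjusted p = 0.333, limma), and by 0.44 ± 0.05 with RAC1 P29S (adjusted p = 7.33e-05, limma), where RPS27 fell. RPL26L1 rose by 0.62 ± 0.07 and 0.33 ± 0.06 (adjusted p = 1.65e-05 and 0.00206, limma). RPL22L1, whose mRNA is repressed by RPL22, went from 11.08, 11.04 and 10.93 to 11.66, 11.21 and 11.39 with VAV1 and from 10.92, 10.84 and 10.93 to 10.53, 10.61 and 10.45 with RAC1 P29S. It rose by 0.40 ± 0.09 with the first and fell by 0.37 with the second (adjusted p = 0.00365 and 0.00106, limma), and the difference of 0.77 ± 0.12 passed the test (adjusted p = 0.000356, limma). RPL22 itself stood at 0.17 ± 0.04 and 0.03 ± 0.04 (adjusted p = 0.0048 and 0.613, limma). Of the 7 near copies and ubiquitin fusions, 4 rose with VAV1, 1 rose and 1 fell with saracatinib, and 2 rose and 1 fell with RAC1 P29S, beside 23.6% of all genes higher with VAV1, 18.3% higher and 19.1% lower with saracatinib, and 15.6% and 15.5% with RAC1 P29S. The difference between a copy and its main gene was not tested. The starts of 2 of them can be set beside that of RPS27 above, with the runs in capitals. The annotated start of RPS27L lies in no pyrimidine run, the longest nearby being 2 bases that end before it. That of RPL22L1 lies in a run of 10.
RPS27L (chr15:63157463-63157507, minus strand): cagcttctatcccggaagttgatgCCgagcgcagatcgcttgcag
RPL22L1 (chr3:170870181-170870225, minus strand): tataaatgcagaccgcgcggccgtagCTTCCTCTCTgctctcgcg

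**Figure D5:**
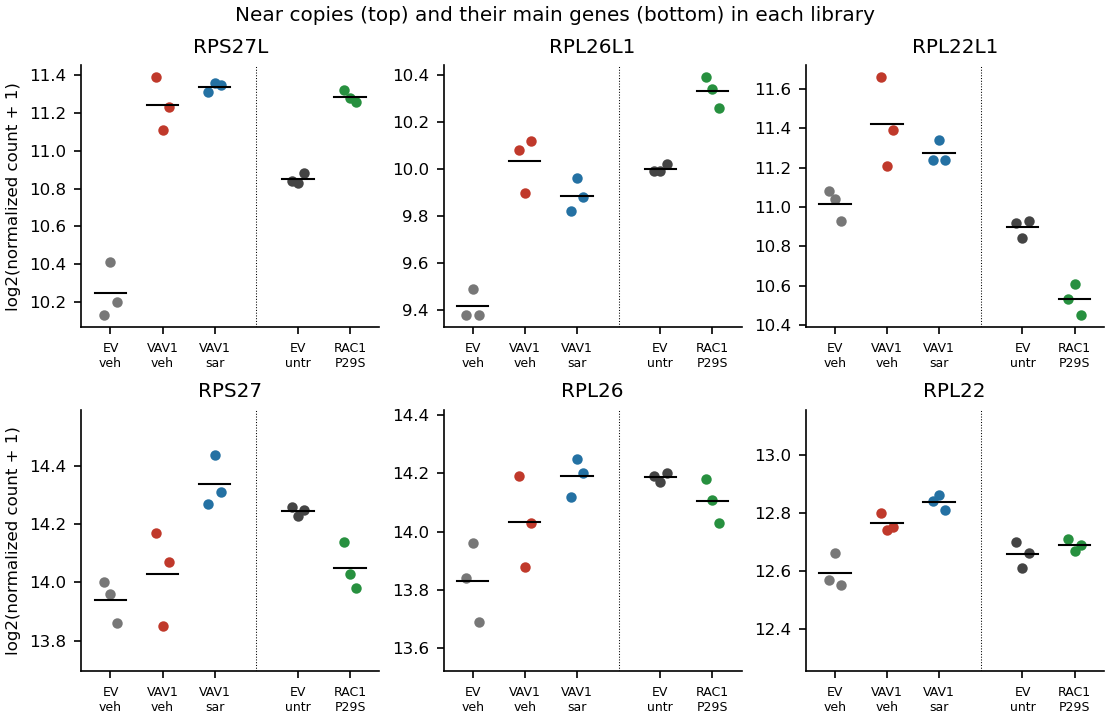
Level of 3 near copies (top row) and of the main genes they resemble (bottom row) in each library (y axis, log2 of the normalized count plus 1) by group, with lines at the group means and abbreviations as above. RPS27L is at 10.13 to 10.41 with the empty vector and vehicle and at 11.11 to 11.39 with VAV1; RPL22L1 is higher with VAV1 and lower with RAC1 P29S.

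Lists of genes that work with the ribosomal proteins were set beside the share of all genes called, which was 23.6% higher and 20.1% lower with VAV1, 18.3% and 19.1% with saracatinib and 15.6% and 15.5% with RAC1 P29S. Chaperones and importers that carry new ribosomal proteins rose with VAV1 in 8 of 11 cases and fell in none, and fell with saracatinib in 8 of 11 and rose in none. Their median log2 fold changes were 0.27 and −0.31. Both comparisons use the VAV1 libraries with vehicle, with opposite sign, so a rise in one and a fall in the other are not independent. With VAV1 and saracatinib against the empty vector with vehicle, 2 rose and 2 fell and the median was −0.06. Of all genes, 22.4% rose and 21% fell there. BCCIP, a chaperone of RPL23, rose by 0.65 ± 0.05 and fell by 0.39 ± 0.05 (adjusted p = 4.08e-07 and 7.69e-05, limma), and the importer TNPO1 rose by 0.49 and fell by 0.33. With RAC1 P29S 4 of 11 rose and none fell. Translation factors whose mRNAs carry the same TOP start rose in 9 and fell in 3 of 22 cases with VAV1, rose in 3 and fell in 8 with saracatinib, and rose in 11 and fell in 1 with RAC1 P29S. PABPC1, the poly(A)-binding protein, rose by 0.41 with VAV1 and 0.49 with RAC1 P29S and fell by 0.44 with saracatinib, whereas TPT1 rose by 0.40 with saracatinib. The lists hold genes with no ribosomal role, such as VIM, which fell by 0.44 with VAV1 and by 0.29 with saracatinib.

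Of 20 regulators of translation in and around the mTOR pathway, 7 rose and 3 fell with VAV1, 5 rose and 7 fell with saracatinib, and 1 rose and 3 fell with RAC1 P29S, beside 23.6% and 20.1%, 18.3% and 19.1%, and 15.6% and 15.5% of all genes. With saracatinib the GTPase genes RRAGA, RRAGC and RRAGD, which recruit mTOR to the lysosome, rose by 0.55, 0.61 and 1.03, and EIF4EBP1, the translation repressor inactivated by mTOR, fell by 0.72 ± 0.06 (adjusted p = 7.71e-07, limma). With VAV1, MYC, an activator of ribosomal protein gene transcription, rose by 0.87 ± 0.10 (adjusted p = 8.27e-06, limma), and its effects with VAV1 and RAC1 P29S differed by 0.99 ± 0.13 (adjusted p = 8.58e-05, limma). LARP1, the protein that binds TOP mRNAs, rose by 0.23 ± 0.05 with RAC1 P29S (adjusted p = 0.00378, limma). None of the 11 snoRNA host genes of the list, which have TOP starts as well, was among the genes tested.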

How the data were processed

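Total RNA from 15 A375 libraries was sequenced after an Illumina TruSeq preparation, per the labels' protocols. The authors deposited 1 table per library with a gene symbol and a log2 value. No header gives the scale, and it was read from the values as the log2 of a normalized count plus 1, since the lowest value is 0 and the totals after undoing the log are alike within an experiment. Kallisto, DESeq2 and GRCh38 are named in the submitters' processing notes, with no versions or settings. The library totals are sums of normalized counts, so the read depth is unknown and no counting interval is given.

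Groups follow the sample titles. Each experiment was fitted by limma 3.58.1 in R 4.3.3, with 1 mean per group and empirical Bayes with trend and robust estimation, two-sided, and the difference of effects over all 15 libraries. Tests covered 14410, 14036 and 13810 genes, with at least 10 normalized counts in at least 3 libraries, and p-values were adjusted over all of them. Residuals of libraries with the same replicate number correlated at −0.0547 to 0.0125, so no pairing by number was seen. With 3 libraries a group this cannot show that same-numbered cultures were handled apart. The method was tested on simulated data.

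A share is the members' summed normalized count over the sum of all listed symbols. Positions and coding lengths come from GENCODE release 29, and starts from RefSeq's table. Values after ± are SD for levels and SE for fold changes. The members, gene lists and tests were chosen with earlier results of these data known. Results of some members are not reported here. Always named were the transgenes, the stalk genes, RPS6, RPL5, RPL11, RPSA, RPS27A, RPS4X and the paralogs with their main genes. Otherwise up to 8 called members per direction and comparison were eligible by size of change, and up to 4 genes of each other list by adjusted p. The alternatives were other scalings, filters, pseudocounts and fits, and leaving out each library. Removing trends with length or GC content and adding pseudogene counts were chosen after seeing the data.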

Additional observations from a re-analysis of the deposited data

Results flagged for a closer look

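For several members the effect of VAV1 and that of RAC1 P29S differed by a test of the difference itself over all 15 libraries (limma, adjusted p under 0.05). This held for 15.2% of the members tested and 15.8% of the 13810 genes tested, so the count is close to that of genes in general. The effect of VAV1 was the higher one for RPS29 by 0.47, RPL39 by 0.37, RPS24 by 0.35, RPS7 by 0.32, RPS27 by 0.29, RPL30 by 0.28, RPL17 by 0.23 and RPL23 by 0.20 on the log2 scale. It was the lower one for RPL4 at −0.20, RPL7A at −0.21 and RPS28 at −0.34. Under the 30 alternatives the calls of RPS29, RPL39, RPS24 and RPS28 were lost in 0, that of RPS7 in 1, RPL4 in 2, RPL30 in 6, RPL7A in 14, RPL17 in 16 and RPS27 in 20, a count not made for RPL23. Both groups of the VAV1 contrast received vehicle, and both groups of the RAC1 P29S contrast were untreated. The contrasts also come from separate experiments, each normalized on its own. These differences cannot be told apart from that of the transgenes here.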

How the results depend on the processing

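Of 282 recomputed summary values of the 14 counts, medians and shares, 261 were labelled the same. For a call count this meant a similar size with the balance of higher and lower not turned. For a median or share it meant a value within the pooled SD of the libraries, whatever its sign. The share difference, for example, went down to −0.09 points with VAV1 and with RAC1 P29S when single libraries were left out. Leaving out each library in turn gave 14 to 32 called members with VAV1, 28 to 41 with saracatinib, 41 to 51 with both, 15 to 23 with RAC1 P29S and 6 to 23 for the difference. Without RAC1 P29S replicate 1 the call count was 17 and without untreated empty-vector replicate 3 it was 23, both with more members lower than higher. Without trend and robust estimation, 9 were called with VAV1, 4 with RAC1 P29S and 4 for the difference. With the coding-length trend removed, the counts were 27 with VAV1 (7 higher, 20 lower), 27 with both and 23 for the difference (4 higher, 19 lower), and the medians −0.039, 0.036 and −0.079. After quantile normalization the median was 0.113 with both and −0.024 with RAC1 P29S. Reversed single values were RPLP2 with both at −0.12 (coding-length trend removed), and RPLP0 and RPSA with RAC1 P29S at −0.15 and −0.06 (quantile normalization). Where no value above shows it, the cause was not tested.

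No pairing by replicate number was seen. With the replicate block the counts were 18, 31, 47, 19 and 7 for VAV1, saracatinib, both, RAC1 P29S and the difference. With 3 libraries a group and unknown read depth, the spread of single members, with median within-group SDs of 0.04 to 0.08, limits what can be called.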
